A study of Mus musculus with 35 samples.

Results

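Interferon-stimulated genes are the set of genes that cells switch on when an interferon binds its receptor. Here 9 of them were followed in the mouse hippocampus after status epilepticus: Ifit1, Ifit3, Oasl2, Isg15, Ifitm3, Gbp2, Gbp3, Irf7 and Irf1. They were picked by name when results of these data were already known, so the shares of all genes given beside them are a description. All 9 were found among the 32544 gene symbols of the count tables. The animals were adult male C57BL/6JOlaHsd mice. Kainic acid (KA), an agonist of glutamate receptors, was injected into the amygdala through a cannula to start status epilepticus, and lorazepam was then given to reduce the seizures. Control mice received PBS into the amygdala. RNA of the hippocampus was taken 24 hours or 2 weeks after the injection. By the later time mice of this model have spontaneous seizures. From each mouse a library of total RNA (input), a library of RNA pulled down with an antibody against the RNA modification m6A, or both were sequenced. The m6A libraries came from 5 KA and 3 PBS mice at 24 hours and from 6 KA and 5 PBS mice at 2 weeks. The input libraries came from 4 KA and 3 PBS mice at 24 hours and from 6 KA and 3 PBS mice at 2 weeks. All mice share the cannula and the injection, and no uninjected mouse was part of the comparisons.

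Type I interferons act through the receptor of Ifnar1 and Ifnar2. The kinases Jak1 and Tyk2 then pass the signal on to a complex with Irf9, which binds a DNA element called the interferon-stimulated response element (ISRE). Interferon gamma acts through Ifngr1 and Ifngr2 and leads to binding at a gamma-activated site (GAS). Ifit1, Ifit3 and Oasl2 belong to families that recognise or respond to foreign RNA. Isg15 is a ubiquitin-like protein that is attached to other proteins, and Ifitm3 is a membrane protein that hinders virus entry. Gbp2 and Gbp3 are large GTPases, and Irf7 and Irf1 are transcription factors that amplify the response. In the brain these genes are expressed by microglia, astrocytes, vascular cells and neurons when interferon signalling is active.

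The 2 DNA elements were looked for in the promoters because most of these genes had higher counts together 24 hours after KA. In the RefSeq promoter sequences of GRCm38.p6, which reach from 250 bases before to 50 bases after the start of a gene, all 9 genes had an entry. The letters GAAA, any 2 bases and GAAA again, or TTTC, any 2 bases and TTTC on the other strand, stood for the core of an ISRE, and the palindromic letters TTCNNNGAA for a GAS. At least 1 ISRE core lay in the promoters of 6 of the 9 genes, and 3.44% of all 32851 promoters held one. A GAS lay in the promoters of Irf1 and Ifitm3, against 8.3% of all promoters. Gbp3 and Irf1 have 2 annotated starts each, and in both genes the first one held the element. The windows below run 5′ to 3′ on the strand of the gene and are shown because they hold these elements, which are in capitals.
Ifit1 (chr19:34640755-34640843, plus strand): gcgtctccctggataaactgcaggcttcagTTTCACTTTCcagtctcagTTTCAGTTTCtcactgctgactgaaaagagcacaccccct
Ifit3 (chr19:34583343-34583446, plus strand): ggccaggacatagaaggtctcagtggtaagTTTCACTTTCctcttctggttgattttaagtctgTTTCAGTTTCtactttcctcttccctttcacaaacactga
Gbp2 (chr3:142620574-142620643, plus strand): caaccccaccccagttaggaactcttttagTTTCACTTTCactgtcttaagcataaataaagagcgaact
Gbp3 (chr3:142559969-142560044, plus strand): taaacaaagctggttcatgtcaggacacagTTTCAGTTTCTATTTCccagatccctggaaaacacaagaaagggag
Isg15 (chr4:156200845-156200926, minus strand): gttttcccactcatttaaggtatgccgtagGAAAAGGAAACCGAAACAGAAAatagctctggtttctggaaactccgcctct
Ifitm3 (chr7:141010695-141010772, minus strand): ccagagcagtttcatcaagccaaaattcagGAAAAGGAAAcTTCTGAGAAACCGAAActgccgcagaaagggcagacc
Irf1 (chr11:53769894-53769962, plus strand): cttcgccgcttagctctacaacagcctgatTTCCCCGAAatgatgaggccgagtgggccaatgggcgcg

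Ifit1 held 2 ISRE cores, which began 104 and 85 bases before its start, and Ifit3 held 2, at 156 and 122 bases. The single core of Gbp2 began 59 bases before the start. Gbp3 held 2 overlapping matches, at 45 and 39 bases, and Isg15 held 3 overlapping matches, at 78, 72 and 66 bases. In Ifitm3 the elements lay just after the annotated start, with the ISRE cores at 2 and 19 bases and a GAS, which overlaps the second core, at 13 bases. The GAS of Irf1 began 90 bases before the start. Oasl2 and Irf7 had neither set of letters in this window. A match describes the sequence and does not show that a factor bound there.

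Total counts ranged from 1652933 to 34564536 in the m6A libraries and from 3171 to 12694434 in the input libraries. At 24 hours 3 input libraries, of PBS mice 71 and 73 and KA mouse 97, held fewer than 100000 counts and were left out. This left 3 KA mice and 1 PBS mouse for the input comparison at that time. Both libraries of KA mouse 8 stood apart from the rest, with 28496 (m6A) and 28574 (input) genes detected against 25717 or fewer in all other libraries but 1, the m6A library of KA mouse 6 at 2 weeks, which had 27003. Markers of hippocampal and other excitatory neurons were present in every library used, with a sum of 824 to 5465 counts per 1000000 (CPM). The lowest sums were those of KA mouse 8, with 824 CPM (input) and 847 CPM (m6A). Levels are given below as CPM of the whole library and are set between mice for 1 gene at a time, since CPM does not account for gene length. CPM in an m6A library reports how much of a transcript was in the pulled-down RNA, and it depends on the amount of the transcript as well as on its methylation. Bulk tissue cannot tell more RNA per cell from more cells of a type.

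Of the 9 genes, 5 had higher CPM in every KA mouse than in every PBS mouse in the m6A libraries 24 hours after injection: Ifit3, Gbp2, Gbp3, Irf7 and Ifitm3. The same was true of 432 of the 16470 genes tested (2.62%). No member passed the test after adjustment over all genes, and neither did almost any other gene (1 of 16470, or 0.00607%). At an unadjusted p under 0.05, 8 of the 9 were higher in KA mice, against 4.02% of all genes. Irf1 was the exception. The median log2 fold change of the members was 2.14 and that of all genes tested was 0.08.

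Gbp2 had the lowest p of the set. Its level was 17.7, 18.1, 21.2, 26.1 and 59.2 CPM in the 5 KA mice and 1.72, 4.35 and 5.92 CPM in the 3 PBS mice, so that the lowest KA value was well above the highest PBS value. The log2 fold change was 2.82 (SE 0.52, edgeR adjusted p = 0.157), which put Gbp2 at rank 27 of all genes by p. Gbp3 had 28.2, 36.9, 53.7, 55.7 and 92.3 CPM in KA mice and 9.08, 16.3 and 16.9 CPM in PBS mice. The difference was smaller, at 1.89 on the log2 scale (SE 0.38, adjusted p = 0.197), and its groups did not overlap either. Both GTPase genes lie in the Gbp cluster on chromosome 3, whose members are alike enough that reads may have been divided between them.

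Ifit3 was at 35.7, 56.6, 57.9, 122 and 536 CPM in KA mice, against 12.8, 13.0 and 25.1 CPM in PBS mice. The log2 fold change was 3.19 (SE 0.89, adjusted p = 0.515), and it was 2.00 (SE 0.46) without KA mouse 79. Its neighbour on chromosome 19, Ifit1, had 16.2, 18.8, 26.6, 61.3 and 189 CPM in KA mice and 9.82, 14.2 and 21.6 CPM in PBS mice. Here the groups overlapped, since KA mice 67 and 98 lay below the highest PBS mouse, and the log2 fold change was 1.99 (SE 0.78, adjusted p = 0.822). Ifit3 has a near-identical copy, Ifit3b, and reads of the pair may have been divided between them in the counting.

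Oasl2, an oligoadenylate synthetase-like gene, had 11.5, 11.6, 22.2, 24.7 and 85.8 CPM in KA mice and 2.51, 3.29 and 13.6 CPM in PBS mice. A single PBS mouse, 71, reached into the KA range. The log2 fold change was 2.24 (SE 0.77, adjusted p = 0.671). Isg15 was at 1.81, 4.97, 6.06, 10.0 and 38.8 CPM in KA mice and 0.664, 1.36 and 2.40 CPM in PBS mice. The overlap came from KA mouse 98, whose shallow library held 3 counts of the gene, and the log2 fold change was 3.03 (SE 0.88, adjusted p = 0.535). Ifitm3 was at 9.35, 16.6, 19.7, 21.8 and 25.9 CPM in KA mice, against 3.00, 3.32 and 7.35 CPM in PBS mice. KA exceeded PBS on the log2 scale by 1.99 (SE 0.38, adjusted p = 0.157).

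The transcription factors are described last. Irf7, which drives the production of type I interferons, had 4.01, 5.44, 5.94, 10.1 and 19.4 CPM in KA mice and 0.930, 1.11 and 3.87 CPM in PBS mice. The groups were apart and the log2 fold change was 2.14 (SE 0.63, adjusted p = 0.535). Irf1, a target of interferon gamma signalling, had 4.67, 4.84, 6.57, 8.61 and 9.35 CPM in KA mice and 4.21, 4.72 and 8.07 CPM in PBS mice. These ranges overlapped almost fully, and the log2 fold change was 0.27 (SE 0.34, adjusted p = 0.983).

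**Figure D1:**
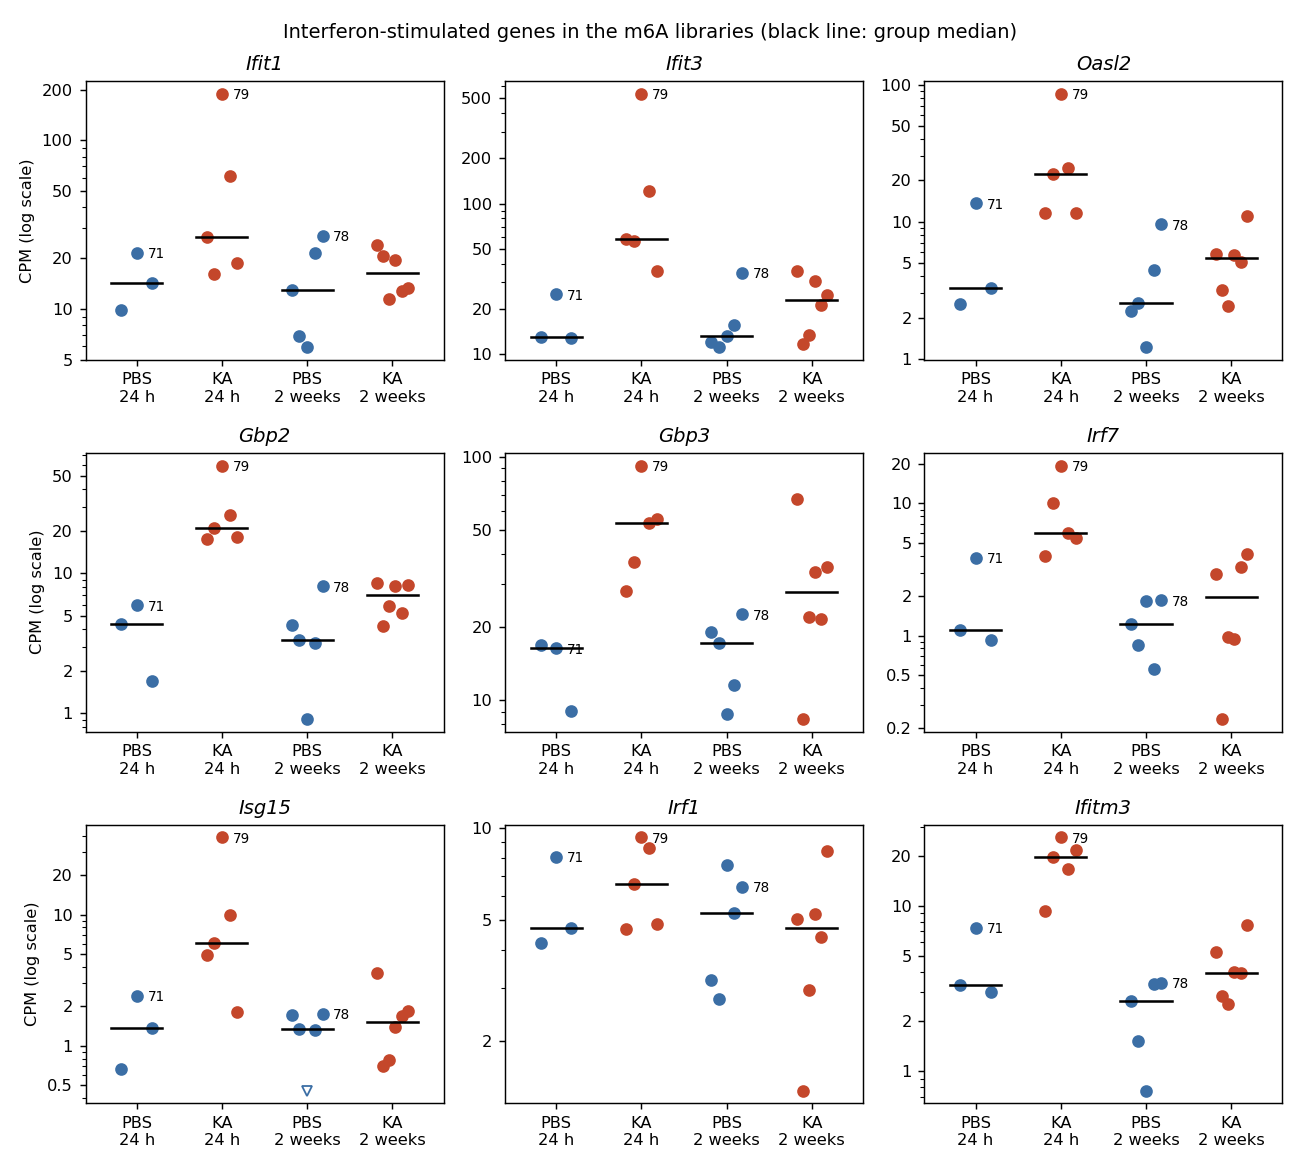
CPM (log scale) of each gene in the m6A libraries, with 1 point a mouse, PBS in blue, KA in red and a black line at the group median. The open triangle stands for a count of 0 and is drawn at the level of 3 counts. KA mouse 79 is the highest KA mouse of its time for all 9 genes, and PBS mice 71 and 78 are often the highest of their groups.

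A single mouse carried much of the spread, as the plot of the m6A libraries shows. KA mouse 79 had the highest level of all 9 genes among the KA mice at 24 hours. Its 9 members summed to 1056 CPM, against 165 to 329 CPM in the other KA mice and 51.1 to 104 CPM in the PBS mice. Relative to the median of the other KA mice it was 9.37 times as high for Ifit3, 8.33 times for Ifit1 and 7.04 times for Isg15, but 1.43 times for Ifitm3. PBS mouse 71 was the highest control for 8 of the 9 genes, all but Gbp3. Without KA mouse 79 the log2 fold change of Ifit1 went from 1.99 to 1.03, that of Ifit3 from 3.19 to 2.00, that of Isg15 from 3.03 to 1.96 and that of Oasl2 from 2.24 to 1.41, while Gbp2 was at 2.38 and Ifitm3 at 1.82. Irf7 went from 2.14 to 1.62. Without PBS mouse 71 in its place Oasl2 was at 3.32 and Irf7 at 3.04. Without both mice the 9 values ran from 0.39 (Irf1) to 2.72 (Gbp2). No member passed the test in any of these fits. Library sets are the numbered groups in which the authors deposited the counts, and for m6A libraries that number also starts the column names. Mice 79 and 71 belong to the same library set, together with KA mouse 97 and PBS mouse 73. Within this set all 9 log2 fold changes were above 0, from 0.37 for Irf1 to 4.00 for Ifit3, and 1 gene, Gbp3, passed the test (2.40, SE 0.34, adjusted p = 0.0317, against 2.11% of all genes). KA mice 67, 98 and 8 were in set 3, which held no PBS mouse. PBS mouse 1 was in set 5, which held no KA mouse at 24 hours. Treatment and library set are thus partly confounded in the m6A libraries at this time.

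The number of members called depended on the test. With DESeq2 and with limma voom and quality weights, 5 members each passed in the m6A libraries at 24 hours, and these were the same genes, Gbp2, Gbp3, Ifit3, Ifitm3 and Isg15. Over all genes DESeq2 called 134 (0.469%) and voom called 1120 (6.8%). Gbp2 passed without the filter on low counts (22 genes, 0.0739%) and in a fit of all m6A libraries (31 genes, 0.178%), and Ifitm3 passed without KA mouse 8 (0.279%). With the library set as a block no gene passed, and the log2 fold changes were as large or larger for all members but Ifitm3 (1.93), for example 4.01 for Ifit3, 3.37 for Gbp2, 2.69 for Ifit1 and 2.41 for Gbp3.

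In the input libraries of total RNA at 24 hours all 9 genes were higher in each of the 3 KA mice than in the only PBS mouse. This held for 10.6% of the genes tested. By unadjusted p under 0.05 in edgeR, 8 of the 9 were higher, against 1.49% of all genes, the exception being Gbp3. No gene of 18918 passed after adjustment (0%) in this fit, which assumes that the lone PBS mouse varies as the KA mice do. Gbp2 had 13.5, 20.7 and 21.8 CPM in KA mice and 2.84 CPM in the PBS mouse. The log2 fold change of Gbp2, 2.98 (SE 0.46, adjusted p = 0.991) ranked second among all genes by p.

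Oasl2 was next among the members, with 10.1, 11.01 and 14.2 CPM in KA mice against 2.13 CPM in the PBS mouse. KA exceeded PBS on the log2 scale by 2.73 (SE 0.47, adjusted p = 0.991). Isg15 had 3.53, 3.84 and 5.46 CPM against 0.709 CPM, from 9 counts in the PBS mouse, and a log2 fold change of 2.84 (SE 0.80). For Ifitm3 the levels were 6.15, 9.98 and 10.9 CPM against 2.05 CPM. Irf7 was at 2.72, 5.82 and 6.40 CPM against 1.02 CPM. In all 4 genes the PBS mouse lay further below the lowest KA mouse than the KA mice lay from each other, as ratios.

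Ifit3 had 20.8, 29.8 and 35.1 CPM in KA mice and 10.1 CPM in the PBS mouse. Ifit1 had 17.95, 32.8 and 44.0 CPM against 13.4 CPM, and Gbp3 had 13.5, 19.3 and 27.1 CPM against 10.6 CPM. Their log2 fold changes were 1.76 (SE 0.41), 1.49 (SE 0.55) and 1.16 (SE 0.46). Irf1, whose groups overlapped in the m6A libraries, had 4.74, 6.00 and 6.65 CPM in KA mice and 2.60 CPM in the PBS mouse, and KA exceeded PBS on the log2 scale by 1.42 (SE 0.54). KA mouse 8 was the lowest KA mouse for all 9 genes.

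**Figure D2:**
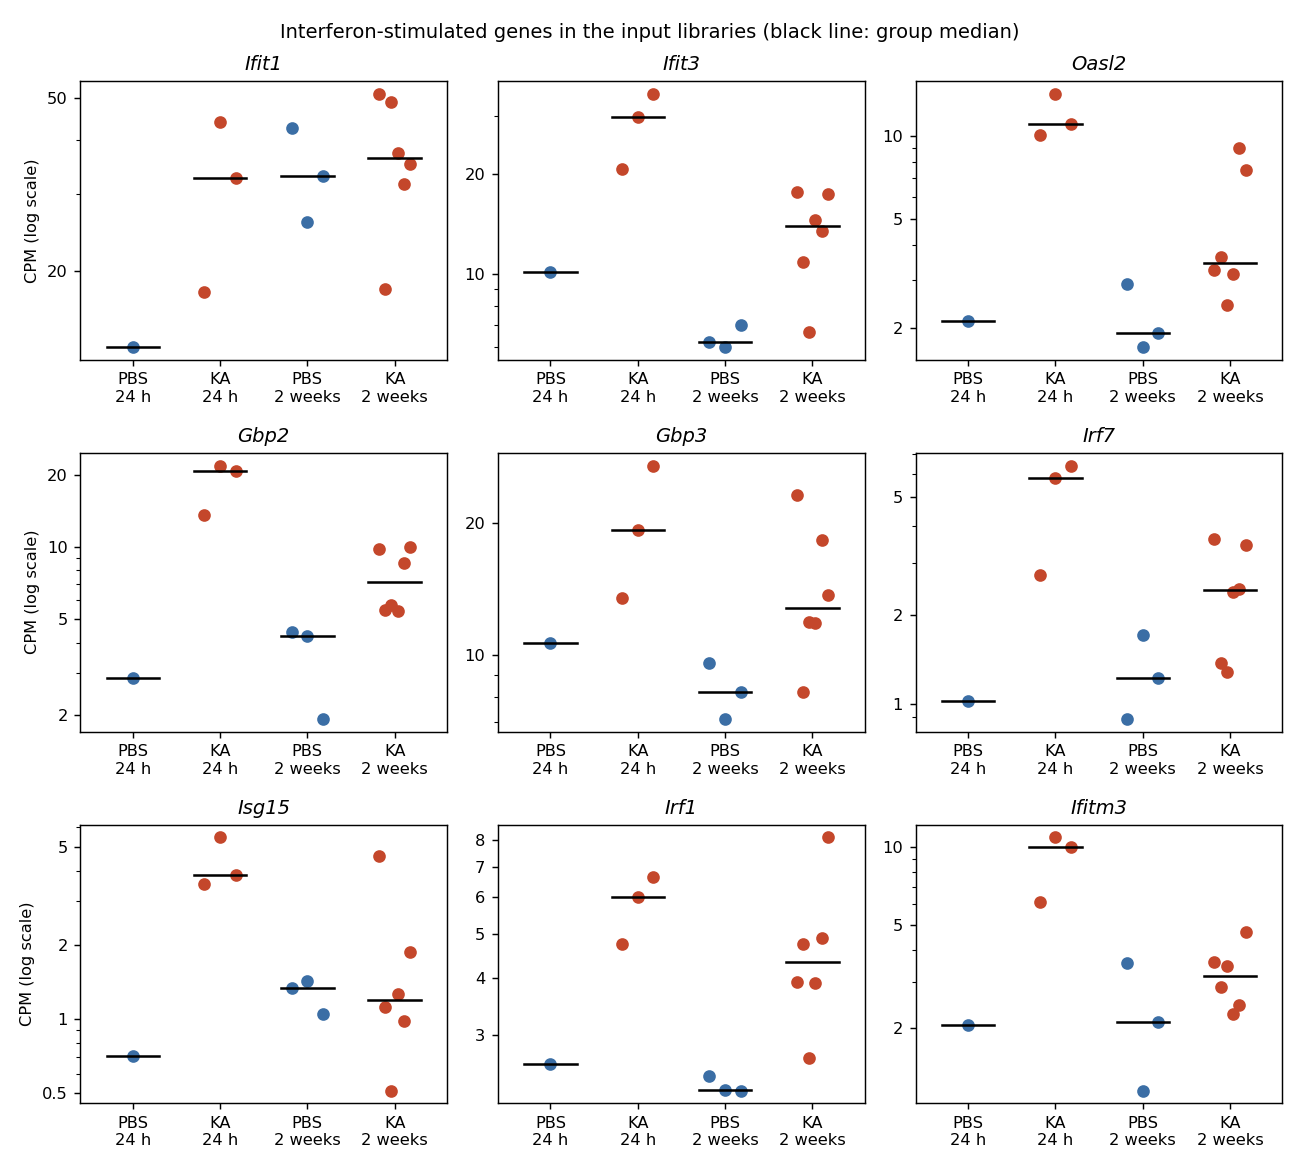
CPM (log scale) of each gene in the input libraries with 100000 or more counts, with 1 point a mouse, PBS in blue, KA in red and a black line at the group median. All 9 genes lie above the lone PBS mouse in the 3 KA mice at 24 hours, and at 2 weeks Gbp2 and Irf1 do not overlap between the groups.

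In this comparison all genes together had a median log2 fold change of 0.30, and it was 0.02 when libraries were scaled by their totals. The median of the members was 2.39 and 2.12 under the same scalings, so the distance to all genes was about the same. Set against the 4 PBS input mice of both times, 8 of the 9 genes passed, Ifit1 being the exception (160 of 14155 genes, 1.13%). There the log2 fold change of Gbp2 was 2.70, with an SE of 0.30 (adjusted p = 0.0143), and that of Oasl2 was 2.65 (SE 0.24, adjusted p = 0.00887). Ifit1 stood at 0.31 (SE 0.39), because the PBS mice at 2 weeks had 25.9 to 42.6 CPM, as high as the KA mice at 24 hours. Without KA mouse 8, which leaves 1 library set with KA mice 67 and 98 and the PBS mouse, 8 of the 9 genes passed, all but Irf1, as did 1914 of 14733 genes (13%). The spread in that fit comes from these 2 KA mice alone, with 1 residual degree of freedom, so its calls carry little weight.

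At 2 weeks the groups overlapped for every gene in the m6A libraries. No member passed the test and neither did any gene of 16157 (0%). At an unadjusted p under 0.05, 2 of the 9 were higher in KA mice, Gbp3 and Ifitm3, against 2.85% of all genes. Of the 9 log2 fold changes 8 were above 0 (49.8% of all genes). The median log2 fold change of the members was 0.52 and that of all genes was -0.0013. The log2 fold change of Gbp3 was 1.01, with an SE of 0.40 and an adjusted p of 0.875. It ranged from 8.39 through a median of 27.8 to 67.3 CPM in 6 KA mice, and the 5 PBS mice had 8.82, 11.6, 17.2, 19.01 and 22.6 CPM. Ifitm3 ranged from 2.55 through 3.94 to 7.70 CPM in KA mice, with 0.760, 1.53, 2.66, 3.38 and 3.41 CPM in PBS mice, a log2 difference of 0.94 with an SE of 0.39 (adjusted p = 0.875).

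Gbp2 had a difference of 0.81 on the log2 scale (SE 0.39, adjusted p = 0.875). Its levels were 4.21, 7.04 and 8.50 CPM as the lowest, median and highest of the KA mice, against 0.912, 3.19, 3.36, 4.25 and 8.09 CPM in the PBS mice. Only PBS mouse 78 lay above the lowest KA mouse by a wide margin. The other members had log2 fold changes of -0.09 (Irf1), 0.27 (Ifit1), 0.44 (Isg15), 0.45 (Ifit3), 0.52 (Oasl2) and 0.80 (Irf7), each less than 1.5 times its standard error. PBS mouse 78 was the highest PBS mouse for 8 of the 9 genes, for example with 34.8 CPM of Ifit3 against 11.2 to 15.6 CPM in the other PBS mice. Within library set 5, the 1 set with both groups at this time (3 KA and 3 PBS mice, without PBS mouse 78), log2 fold changes ran from 0.0056 for Irf1 to 1.21 for Gbp2, and that of Ifit3 was 0.93 (SE 0.33, adjusted p = 0.956). Isg15 had no count in PBS mouse 4, which allows up to 0.456 CPM, the level of 3 counts.

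In the input libraries at 2 weeks 8 genes passed the filter on low counts, Isg15 being too low, and all 8 log2 fold changes were above 0. No gene passed the adjusted test (0 of 13752, 0%). At an unadjusted p under 0.05, 5 of the 8 genes were higher in KA mice, against 8.41% of all genes: Ifit3, Gbp2, Gbp3, Irf1 and Oasl2. Gbp2 and Irf1 did not overlap between the groups, as was the case for 2.64% of all genes. For Gbp2 the 6 KA mice ranged from 5.42 through 7.15 to 9.99 CPM, and the 3 PBS mice had 1.92, 4.28 and 4.44 CPM. The log2 fold change was 1.10 (SE 0.34, adjusted p = 0.266).

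Irf1 ranged from 2.68 through 4.33 to 8.12 CPM in KA mice and was at 2.27, 2.28 and 2.44 CPM in PBS mice, which lay very close together. KA exceeded PBS on the log2 scale by 1.00 (SE 0.38, adjusted p = 0.296). Ifit3 ranged from 6.65 through 14.0 to 17.7 CPM against 5.99, 6.22 and 6.99 CPM, a log2 difference of 1.06 with an SE of 0.31 (adjusted p = 0.266). A single KA mouse, 7, lay within the PBS range. Ifit1 was nearly level, at 18.2, 36.3 and 51.0 CPM as lowest, median and highest in KA mice and 25.9, 33.0 and 42.6 CPM in PBS mice (log2 fold change 0.15, SE 0.25). Within library set 1.2, which holds all 3 PBS mice and 3 of the KA mice, 7 members were tested and their log2 fold changes ran from 0.26 for Ifit1 to 1.66 for Oasl2, with no adjusted p under 0.163.

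**Figure D3:**
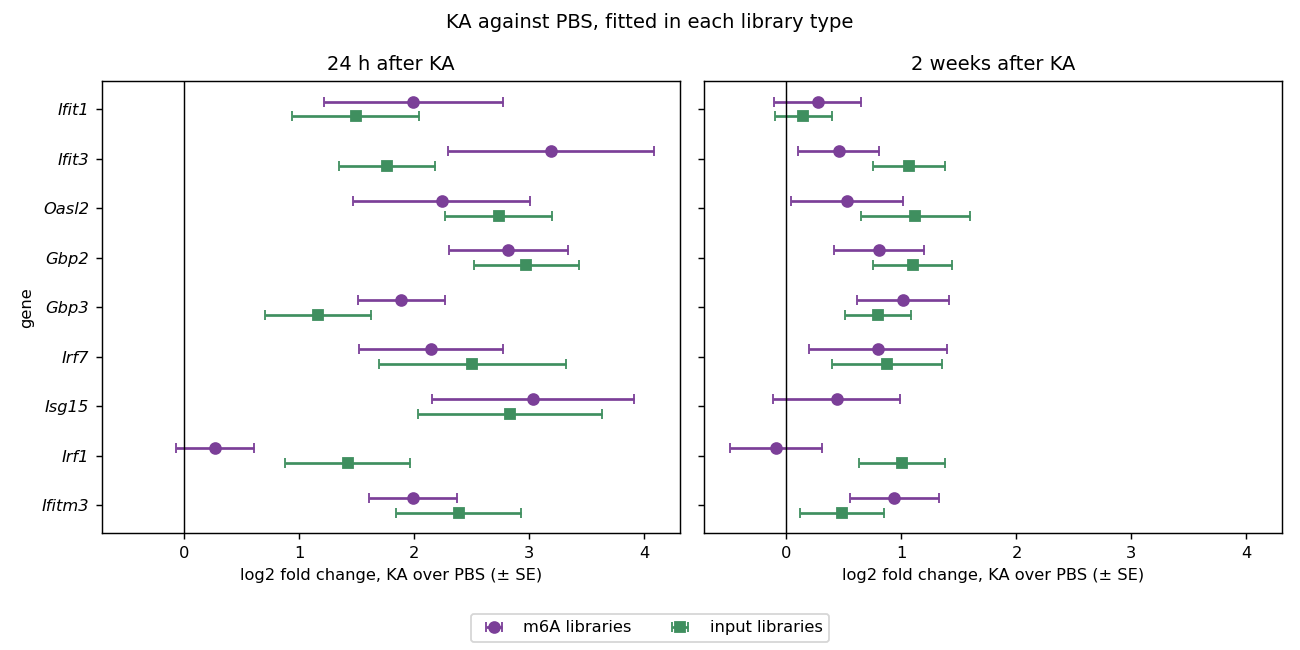
Log2 fold change of KA over PBS with its standard error for each gene in the m6A libraries (purple circles) and the input libraries (green squares), at 24 hours on the left and 2 weeks on the right. At 24 hours all values but that of Irf1 in the m6A libraries lie above 1, and at 2 weeks they lie between -0.09 and 1.12. Isg15 was not tested in the input libraries at 2 weeks.

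The KA effects at both times in the m6A libraries were set against each other in 1 fit of all 19 libraries, as the interaction of treatment and time. All 9 genes had a larger log2 fold change at 24 hours than at 2 weeks, as did 60.7% of all genes. No member passed after adjustment, and 1 gene of 17440 did (0.00573%). At an unadjusted p under 0.05, 3 members had a larger effect at 24 hours, against 1.82% of all genes. These were Ifit3 (difference 2.75, SE 0.87), Gbp2 (2.01, SE 0.64) and Isg15 (2.61, SE 1.01), each with an adjusted p of 1.00. The smallest difference was that of Irf1 (0.36, SE 0.57).

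Whether KA changed the pulldown beyond the total RNA was tested at 2 weeks, in the 9 mice with both libraries, as an interaction of treatment and library type. The main fit had no block for the mouse, so it took both libraries of a mouse as independent. No member passed, and neither did any gene of 15722 (0%). The difference was above 0 for 6 of the 9 (47.6% of all genes). In this fit without the block none of the members had an unadjusted p under 0.05. Of all genes 1.07% had one for a larger and 1.29% for a smaller effect in the m6A libraries. The largest differences were -0.92 for Irf1 (SE 0.67), 0.91 for Ifitm3 (SE 0.58) and 0.90 for Ifit1 (SE 0.43), each with an adjusted p of 1.00. With the mouse as a block Ifit1 was at 0.94 (SE 0.42, edgeR adjusted p = 0.875). At 24 hours only 1 PBS mouse had both libraries, and no such test was made.

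The m6A to input ratio of the members was also tested, for each gene by itself. Over the 9 mice at 2 weeks, with the mouse as a block, 3 of the 9 genes differed between m6A and input libraries, against 20.2% of all genes. For so few genes the count is not far from that share, and it is no trait of the set. This comparison was added after the data were seen. Ifit1 was lower in the m6A libraries, by a log2 difference of -1.62 (SE 0.23, adjusted p = 8.1e-04), whereas Ifit3 (0.58, SE 0.12, adjusted p = 0.00531) and Gbp3 (0.68, SE 0.17, adjusted p = 0.0131) were higher. Under scaling by library totals all 3 kept their direction and passed, while the median of all genes moved from -0.03 to 0.18. Without the block only Ifit1 passed, while the log2 differences of Gbp3 (0.81, adjusted p = 0.0534) and Ifit3 (0.61, adjusted p = 0.0588) were no smaller. The extraction notes mention poly(A) RNA for the pulldown, and less RNA went into the m6A libraries, so these differences cannot be told apart from how the libraries were made.

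In the 13 mice with both libraries, Ifit3 and Gbp3 had more CPM in the m6A than in the input library in all 13. These ratios are scaled by library totals, and the share of all genes above 1 in every mouse was not counted. The ratio of Ifit3 ran from 1.02 through a median of 1.89 to 2.79 and that of Gbp3 from 1.02 through 1.99 to 2.90. With lowest ratios this near 1, whether every mouse lies above 1 may depend on the scaling. Ifit1, on the same chromosome as Ifit3 and of the same family, had a ratio from 0.179 through 0.401 to 1.48. It was above 1 only in KA mice 8 and 6, whose m6A libraries had the most genes detected. Among the mice at 2 weeks the log2 difference of Ifit1 was -2.26 (SE 0.23) in PBS mice alone and -1.31 (SE 0.26) in KA mice alone, and the interaction above is the test of that gap. The ratios of the other genes lay on both sides of 1, with medians from 0.875 for Gbp2 to 1.52 for Ifitm3.

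**Figure D4:**
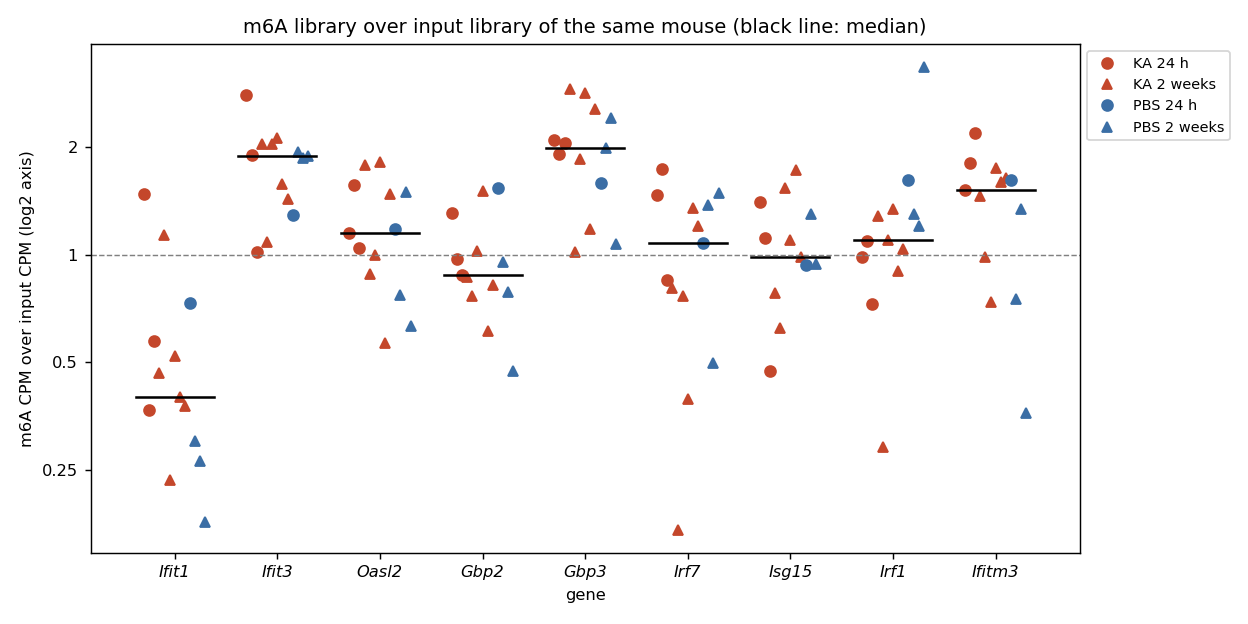
CPM in the m6A library over CPM in the input library of the same mouse (log2 axis) for each gene, with 1 point a mouse in 13 mice, circles for 24 hours, triangles for 2 weeks, KA in red and PBS in blue, and a black line at the median. Under scaling by library totals Ifit3 and Gbp3 lie above 1 in every mouse, the lowest at 1.02, and Ifit1 below 1 in all but 2. The share of all genes above 1 in every mouse was not counted. A ratio of 0, of Isg15 in PBS mouse 4, is not drawn.

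The members varied together across mice. Over the 19 m6A libraries the Pearson correlation of the log2 level of each gene with the mean of the other 8 was 0.96 for Oasl2, 0.95 for Ifit3 and 0.91 for Gbp2. It was lowest for Irf1, at 0.51, and for Ifit1, at 0.79. Without KA mouse 79 these were 0.43 for Irf1 and 0.65 for Ifit1. The points share the difference between treatments and the depth of the libraries, so the values are a description. Among 17431 other genes, the 5 with the pattern most like the mean of the members were Ifit3b (0.94), Pdpn (0.93), Rtp4 (0.93), Irf9 (0.92) and Ddx58 (0.92). Pdpn codes for podoplanin, a membrane glycoprotein, and the other 4 are known interferon-stimulated genes.

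The ligands themselves were hardly counted. Of 15 interferon genes none passed the filter in the m6A libraries. Over all 19 m6A libraries there were 4 counts of Ifnb1, in 3 libraries, and 27 counts of Ifng, of which 18 were in KA mouse 8. Ifnk had the most, with 99 counts. At this depth a difference in ligand RNA was not detectable. The 9 receptor and kinase genes had a median log2 fold change of 0.12 in the m6A libraries at 24 hours, close to that of all genes, and none had an unadjusted p under 0.05. Ifnar1, for example, had 24.6 to 39.8 CPM in KA mice and 27.2 to 31.9 CPM in PBS mice.

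Genes further down the pathway were higher in KA mice at 24 hours, in the m6A libraries, though none of those in the lists passed after adjustment. Of all genes, 4.02% were higher at an unadjusted p under 0.05. Of 10 transcription factors tested 4 were, and the median was 0.63. Irf9, a DNA-binding factor of the type I response, led them with 17.5, 29.4 and 40.2 CPM as lowest, median and highest in KA mice against 8.12, 8.23 and 15.4 CPM in PBS mice (1.49, SE 0.35, adjusted p = 0.316). Of 41 other antiviral effectors, all 41 had a log2 fold change above 0 (58% of all genes did) and 27 an unadjusted p under 0.05, with a median of 1.46. Of 15 interferon-inducible GTPases all 15 were above 0 and 10 had such a p, with a median of 1.81. Iigp1, a GTPase of the immunity-related family, was 3.02 higher on the log2 scale (SE 0.73, adjusted p = 0.370). Of 12 sensors of nucleic acids 1, the adaptor Myd88, had a p under 0.05, which is near the share over all genes. Of 6 feedback genes 1 did, Socs3, an inhibitor of cytokine signalling, with 8.31, 18.2 and 39.4 CPM in KA mice and 0.812, 1.65 and 5.02 CPM in PBS mice (3.10, SE 0.63, adjusted p = 0.199).

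At 2 weeks the same lists had medians in the m6A libraries of 0.37 for the antiviral effectors, 0.25 for the GTPases, 0.17 for the transcription factors, 0.28 for receptors and kinases and 0.14 for the sensors. Of 37 antiviral effectors tested 4 were higher at an unadjusted p under 0.05, where 2.85% of all genes were higher. Of the 37, 1 was lower at such a p, Adar. The share of all genes lower was not counted, so this is a description. In the input libraries at 24 hours all 39 antiviral effectors and all 16 GTPases tested had a log2 fold change above 0 (66.7% of all genes did), with medians of 1.28 and 1.57. In those at 2 weeks 26 of 29 and 11 of 12 were above 0 (52.4% of all genes), with medians of 0.53 and 0.44.

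**Figure D5:**
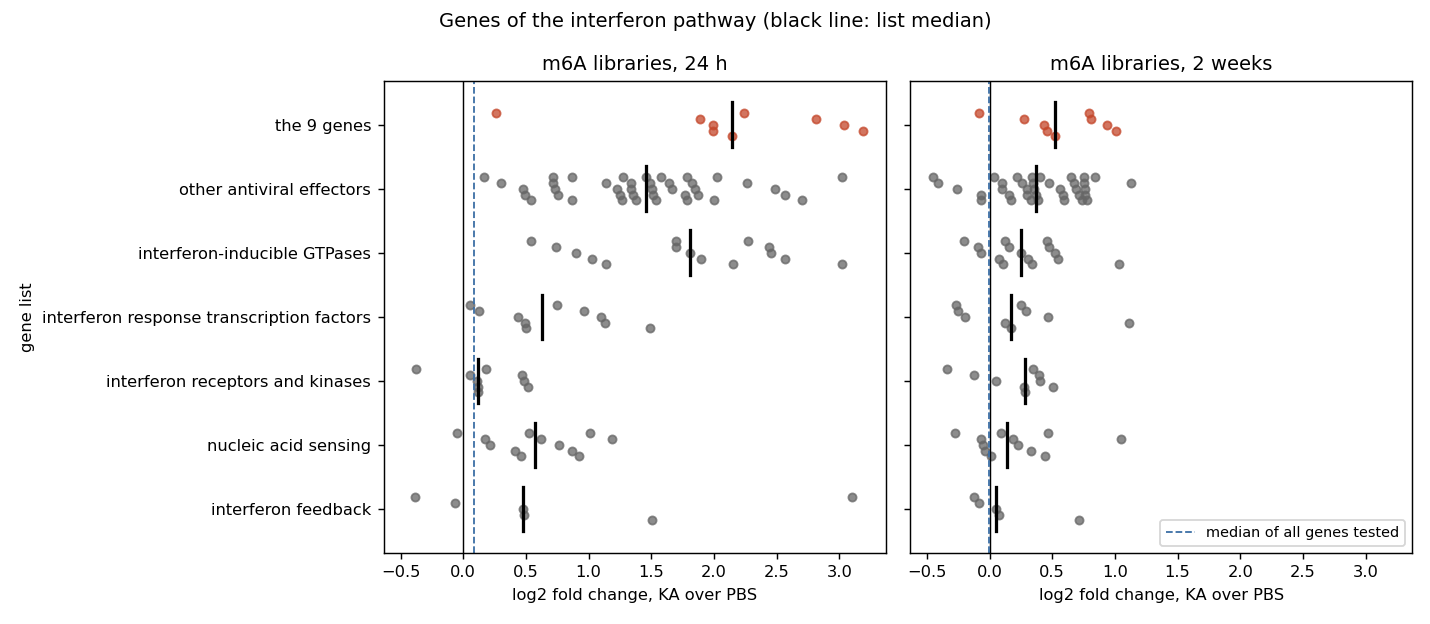
Log2 fold change of KA over PBS in the m6A libraries for each tested gene of 7 lists of the interferon pathway, with 1 point a gene, a black line at the median of each list and a dashed line at the median of all genes tested. At 24 hours the antiviral effectors and the GTPases lie above 0 throughout and receptors and kinases lie around the median of all genes, and at 2 weeks the list medians are at 0.52 or lower.

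Markers of cell types that could carry these transcripts moved in part with the groups. In the m6A libraries at 24 hours the microglial, endothelial, astrocyte and leukocyte lists had no marker at 0 in all mice of a group. There 8 endothelial markers summed to 303 to 495 CPM in KA mice and 229 to 296 CPM in PBS mice. These sums were apart by a narrow margin, and how often sums of other genes are apart was not counted. Of the 8 markers 6 had a log2 fold change above 0 (58% of all genes did). Only Pecam1 had an unadjusted p under 0.05 in edgeR. Microglial markers, 10 in all, summed to 206 to 485 CPM in KA mice and 253 to 332 CPM in PBS mice, and KA mouse 79 and PBS mouse 71 were the highest of their groups. Of the 10 markers 8 had a log2 fold change above 0 (median 0.26), and 1 was lower at an unadjusted p under 0.05 in edgeR. The share of all genes lower was not counted at this time. The 14 markers of infiltrating leukocytes summed to 31.4 to 120 CPM in KA mice and 17.5 to 46.0 CPM in PBS mice, the highest being KA mouse 8, which was the lowest KA mouse for 5 of the 9 members. At 2 weeks microglial markers summed to 245 to 703 CPM in KA mice and 187 to 284 CPM in PBS mice, and leukocyte markers to 24.3 to 44.2 CPM and 17.9 to 27.6 CPM, with 2 of the 14 at 0 in all PBS mice. Astrocyte markers, 8 in all, summed to 1098 CPM in KA mouse 8 at 24 hours. The other KA mice had 3802 to 5244 CPM and the PBS mice 3133 to 3946 CPM. Of the 8 astrocyte markers 3 had a log2 fold change above 0, with a median of -0.28. KA mouse 79 and PBS mouse 71 were the highest of their groups here as well. At 2 weeks the astrocyte sums were 2322 to 7428 CPM in KA mice and 2238 to 4108 CPM in PBS mice.

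In the input libraries at 24 hours all 8 endothelial markers had a log2 fold change above 0 (66.7% of all genes did), with a median of 1.37. Their sum in KA mice, 454 to 1213 CPM, lay on both sides of the 899 CPM of the PBS mouse. Only KA mouse 8 lay above the PBS mouse, and KA mice 67 and 98 had 872 and 454 CPM. All 13 leukocyte markers tested (median 1.49), all 5 of blood (1.81) and all 5 of choroid plexus (1.03) were above 0 too. KA mouse 8 also had the highest leukocyte sum, 96.4 CPM, and the highest blood sum, 38.7 CPM. For blood every KA mouse, the lowest at 11.8 CPM, lay above the 7.72 CPM of the PBS mouse. For choroid plexus KA mouse 8 was the lowest, with 78.9 CPM against 285 CPM in the PBS mouse. KA mice 67 and 98 had 314 and 533 CPM there. The part of KA mouse 8 in these counts above 0 was not tested. Of 7 oligodendrocyte markers 2 were above 0, and of 6 inhibitory neuron markers 0 were. The sums there were 135 to 276 CPM against 170 CPM for microglia, 877 to 4503 CPM against 2472 CPM for astrocytes and 31.2 to 96.4 CPM against 33.3 CPM for leukocytes. At 2 weeks all 10 microglial markers were above 0 in the input libraries (52.4% of all genes were). Of them 5 were higher at an unadjusted p under 0.05 in edgeR, against 8.41% of all genes. The median of these markers was 0.81 and that of the members was 0.94. The microglial markers summed to 215 to 482 CPM in KA mice and 141 to 222 CPM in PBS mice. Other lists were mostly above 0 too: 5 of 7 excitatory neuron markers (median 0.51) and 7 of 8 endothelial markers (0.39). So were 6 of 7 oligodendrocyte markers (0.27), 4 of 5 of choroid plexus (0.34) and 4 of 6 of inhibitory neurons (0.04). Astrocyte markers summed to 3342 to 7553 CPM and 2240 to 4493 CPM, 7 of the 8 were above 0, and Gfap, a marker of reactive astrocytes, had a log2 difference of 2.50 (SE 0.46, edgeR adjusted p = 0.202). Leukocyte markers summed to 27.7 to 44.0 CPM and 20.5 to 29.9 CPM, with 5 of the 14 at 0 in all PBS mice. The part of these cell types in the members' levels was not tested.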

How the data were processed

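The files deposited by the authors are 15 tables of raw, unnormalized counts for 32544 gene symbols, with a column for each of 4 sequencing lanes. Per the labels the libraries were made with a stranded total RNA kit, and the submitters' processing notes name the build mm10. For the aligner, the counting program and the use of strand the entry is: not given in the sources used here. Lanes of 140 columns were summed to 35 libraries, and 8 columns of mice without a matching label were not used. Columns of 8 libraries name the assay, and the other 27 were assigned from how those names are built. No 2 libraries had identical counts. Each library is 1 mouse.

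KA was compared with PBS by the robust quasi-likelihood test of edgeR 4.0.16 (R 4.3.3), after filterByExpr and TMM scaling, with Benjamini-Hochberg adjustment over all genes tested and a threshold of 0.05. Standard errors were obtained from the fold change and the F statistic (log2 value over the root of F). Input libraries under 100000 counts were left out. A level of 3 counts was taken as the limit of a count of 0, which covers counting error only. The mouse pairs input and m6A libraries of the same animal: in 9 mice at 2 weeks the correlations of their deviations from the group means ran from -0.03 to 0.50 (median 0.15). They were -0.03, 0.07 and 0.09 in the 3 PBS mice. In 6 of the 9 mice the m6A library was most alike to the input library of its own mouse, so the pairing is weakly borne out. Alternatives used DESeq2 1.42.0, limma 3.58.1, other scaling and filters, library sets and libraries left out. The fits were tested on simulated data. Gene lists were written by hand. From each list up to 3 genes past the threshold were to be named, and since none passed, the list genes in the text, such as Irf9, Iigp1 and Socs3, were chosen after their values were seen. The 5 genes most like the members were taken by Pearson correlation of log2 CPM (prior count 2). Members and lists were chosen with earlier results of these data known. Promoter sequences are from RefSeq (GRCm38.p6), which is the assembly behind mm10. Tables and plots used Python 3.11.15, pandas 2.3.3, numpy 2.4.6 and matplotlib 3.10.9.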

Additional observations from a re-analysis of the deposited data

Results flagged for a closer look

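Of 36 pairs of a gene and a group with 4 to 10 libraries, 8 had a library whose gap to the others was larger than Dixon's 95% critical value. The gaps were taken in CPM and not on a log scale, where a high value stands out less. Dixon's value assumes normally distributed values, and the genes share the same mice, so the number of flags is a description. KA mouse 79 in the m6A libraries at 24 hours accounted for 5 of them. It had 189 CPM of Ifit1 (16.2 to 61.3 CPM in the other KA mice), 536 CPM of Ifit3 (35.7 to 122 CPM), 85.8 CPM of Oasl2 (11.5 to 24.7 CPM), 59.2 CPM of Gbp2 (17.7 to 26.1 CPM) and 38.8 CPM of Isg15 (1.81 to 10.0 CPM). Its marker sums for microglia, 485 CPM, and for astrocytes, 5244 CPM, were also the highest of its group. The part of these cells was not tested. PBS mouse 78 had 34.8 CPM of Ifit3 in the m6A libraries at 2 weeks, against 11.2 to 15.6 CPM in the other PBS mice. PBS mouse 4 had 0 counts of Isg15 in the same group, against 1.31 to 1.75 CPM in the others. KA mouse 5 had 4.58 CPM of Isg15 in the input libraries at 2 weeks, against 0.511 to 1.87 CPM in the other KA mice.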

How the results depend on the processing

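Over 1113 values of single genes under alternatives, 1035 kept their direction and their side of the threshold, 44 passed the threshold where the reported value did not, 5 no longer passed and 29 changed sign. Library sets, the pair of mice 79 and 71 and all of the m6A over input comparison were added after the data were seen.

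In the m6A libraries at 24 hours (0 members and 1 gene called, 875 genes at an unadjusted p under 0.05), 1 member passed without a filter, 5 with DESeq2, 5 with voom, 1 with all m6A libraries in 1 fit, 1 within library set 4 and 0 to 1 with a library left out. Genes called were 3 with library size scaling, 22 without a filter, 134 with DESeq2, 1120 with voom, 0 with the set as a block, 31 with all m6A libraries, 356 within set 4, 0 without KA mouse 79 and PBS mouse 71, and 0 to 45 with a library left out. In the input libraries at 24 hours (0 and 0, 432 unadjusted), members called were 5 with all labelled libraries, 8 with the PBS libraries of both times, 8 within set 1.2 and 0 to 8 with a library left out. Genes called were 3 without a filter, 9 with DESeq2, 75 with all labelled libraries, 160 with both times, 1914 within set 1.2 and 0 to 1914 with a library left out. The fit without PBS mouse 1 could not be made. At 2 weeks the m6A libraries (0 genes, 809 unadjusted) gave 2 genes without a filter, 15 with DESeq2, 2 with voom, 1 with all m6A libraries and 0 to 1 with a library left out. The input libraries (0 genes, 1938 unadjusted) gave 4 without a filter, 112 with DESeq2, 342 with voom, 16 with both times and 0 to 1 with a library left out.

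The time interaction (1 gene, 428 unadjusted) gave 5 genes with DESeq2, 2 with the set as a block and 1 to 1 with a library left out. The assay interaction (0 genes, 371 unadjusted) gave 2 with DESeq2, 1 with the mouse as a replicate block and 0 with any library left out. For m6A over input (3 members, 3176 genes) the fit without the replicate block gave 1 member and 2059 genes, PBS mice alone 1 and 57, KA mice alone 1339 genes, and a mouse left out 3 to 4 members and 1876 to 3803 genes.

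Signs changed for values near 0. Irf1 in the m6A libraries at 2 weeks was at 0.22 with voom, 0.0056 within set 5 and -0.35 to 0.096 with a library left out (above 0 without PBS mouse 78, PBS mouse 4, KA mouse 6 or KA mouse 7). Ifit1 in the input libraries at 2 weeks was at -0.026 with voom. In the assay interaction with a library left out, Gbp2 ran from -0.21 to 0.50, Gbp3 from -0.057 to 0.46, Ifit3 from -0.26 to 0.017, Irf7 from -0.48 to 0.15 and Isg15 from -0.18 to 0.78. In m6A over input Ifitm3 was at 0.14 with library size scaling, 0.17 in KA mice alone and -0.16 to 0.076 with a mouse left out. Irf1 was at 0.13 with library size scaling, 0.029 without the replicate block, 0.59 in PBS mice alone and -0.27 to 0.15 with a mouse left out, and Oasl2 at 0.10 with library size scaling and -0.22 to 0.033 with a mouse left out. The cause of these changes was not tested.

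With 3 PBS mice at 24 hours, 1 of them in the input comparison, the spread of the controls is poorly known there. Isg15 and Irf7 rest on few counts in shallow libraries.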
